A study of Bos taurus with 12 samples.

Results

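Transcripts of the secretory machinery were followed in cultured bovine chromaffin cells, the hormone-releasing cells of the adrenal medulla, which store catecholamines and peptides in dense-core granules and release them by exocytosis. The genes described are all those whose symbol places them among the syntaxins (STX), syntaxin-binding proteins (STXBP), vesicle-associated membrane proteins (VAMP), the SNAP25 family, synaptotagmins (SYT), synapsins, complexins, NSF and its adaptors, RAB genes, V-ATPase subunits (ATP6V), exocyst subunits (EXOC), CADPS or SV2 genes. The rule used names only and no measured value, though it was chosen with earlier results of these data known. It gave 104 genes with 141 probe sets, out of 9155 named genes, and each gene is represented by its brightest probe set. Cells were untreated, or received interleukin-6 (IL6, 10 nM, 24 h), human interferon alpha (IFNα, 1 nM, 24 h) or histamine (10 µM, 6 h). All cells came from adrenal glands, and no genotype, age or sex is given in the labels. Each of the 4 groups had 3 single-colour Affymetrix arrays. The series design calls these triplicates technical repeats, so p-values measure only the spread between such repeats. The labels do not say how long the untreated cells were cultured.

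SNARE proteins drive membrane fusion: syntaxins and SNAP25 on the target membrane zip up with a VAMP on the vesicle, and NSF with its adaptors takes the spent complexes apart. Synaptotagmins couple fusion to calcium, Rab GTPases mark each membrane and recruit the proteins that move and dock it, and the exocyst tethers vesicles to the plasma membrane. The V-ATPase, a proton pump with a membrane sector (V0) and a catalytic sector (V1), acidifies the granule, and the proton gradient drives catecholamine uptake.

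The values are log2 expression levels. On each array the lower quartile of all probe sets lay between 5.02 and 5.11. The chromaffin cell markers CHGA, CHGB, TH, PENK and DBH averaged 13.57, 13.73, 13.56, 13.94 and 10.96. All of them lay far above that quartile. The log2 of the summed level of the 11 measured markers of this cell type ran from 16.24 to 16.28 in untreated cells, 16.16 to 16.31 after IL6, 16.24 to 16.38 after IFNα and 16.42 to 16.47 after histamine, where PNMT, SLC18A2 and SCG2 were called higher. The markers did not all move together: after histamine 7 of the 11 log2 changes were above 0 and 4 below, the lowest -0.58. After IL6 SLC18A2 was called higher and PNMT lower. Transcripts of other cells were also present. The log2 of the summed level of 13 adrenal cortex markers ran from 11.49 to 11.52 in untreated cells, 11.11 to 11.39 after IL6, 11.20 to 11.35 after IFNα and 11.996 to 12.05 after histamine. For 16 fibroblast and mural cell markers the ranges were 14.24 to 14.30, 14.03 to 14.13, 14.09 to 14.17 and 14.34 to 14.38. For 15 leukocyte markers they were 9.75 to 9.79, 10.46 to 10.62, 9.66 to 9.78 and 9.99 to 10.04. For 16 endothelial markers they were 9.96 to 10.01, 9.73 to 9.89, 9.67 to 9.70 and 9.72 to 9.87, and for 7 Schwann cell markers 10.71 to 10.76, 10.87 to 10.90, 10.42 to 10.49 and 10.83 to 10.90. Of the leukocyte markers, CORO1A and CD14 were called higher and ITGB2 lower after IL6. The median log2 change of the 15 was 0.14 there, with 14 changes above 0 and 1 below. The scale has no true zero, so no marker can be called absent. Fewer cells of a type and less RNA per cell cannot be told apart in such samples, and the part of other cell types in the results on exocytosis genes was not tested. Also, 3 arrays stood apart: the mean of 31 glycolysis and hypoxia genes exceeded the untreated mean by 0.58 and 0.90 in IL6 repeats 2 and 3 and by 0.62 in IFNα repeat 3, against 0.06 in IL6 repeat 1 and -0.06 and -0.04 in the other IFNα repeats.

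Most of these genes differed between the groups, but by little. A gene was called when its adjusted p in limma was under 0.05 and its fold at least 1.5, and counts at the adjusted p alone, with no fold minimum, are given beside it. In limma's moderated F test over the 4 groups, 75 of the 104 genes (72.1%) passed the adjusted p, against 60.5% of all named genes. The families were brighter than most genes: 69 of 104 lay above the median level of named genes, and among those 56 of 69 (81.2%) passed, against 79.9% of the 4576 bright genes. The share of the secretory genes was thus near the background among genes above the median level. The genes below that level were not compared in this way. Among the families, all 6 synaptotagmins and all 4 members of the NSF group passed the F test, as did 11 of 13 syntaxins and SNAP25-type proteins, 28 of 39 Rab GTPases and 12 of 17 V-ATPase subunits. SV2A, a granule glycoprotein, SYN1, a vesicle-tethering phosphoprotein, and CPLX2, a complexin that clamps SNARE complexes, did not pass (0 of 3 in limma, 1 of 3 at an unadjusted p under 0.05). At the adjusted p alone, 37 genes passed in none of the 3 treatments, 41 in 1 treatment, 21 in 2 and 5 in all 3. Among all named genes 21.3% passed after IL6, 22.1% after IFNα and 40.9% after histamine. The number of treatments passed was not counted over all genes, so these 4 counts have no background beside them.

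**Figure D1:**
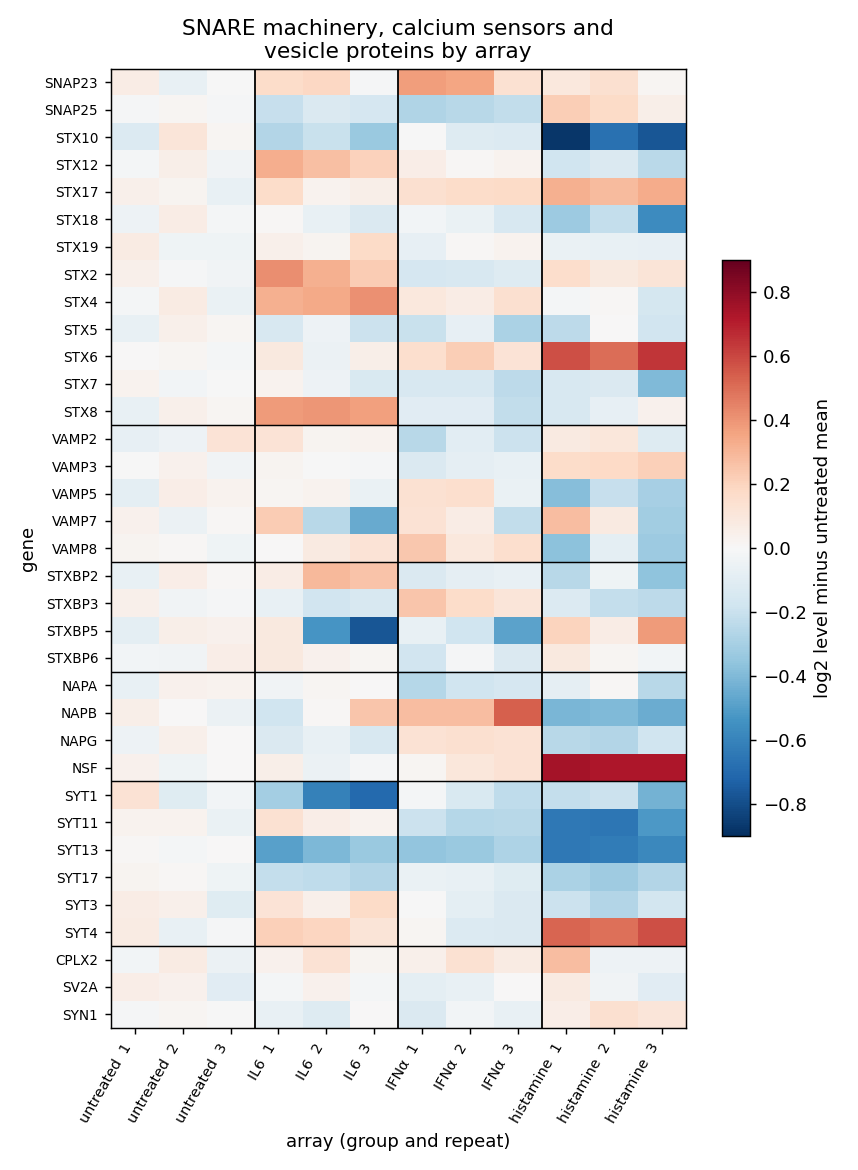
Log2 level minus the mean of the untreated arrays, on each of the 12 arrays (columns, by group), on a colour scale from -0.9 to 0.9. Rows, grouped by family, are the SNAREs, syntaxin-binding proteins, NSF and its adaptors, synaptotagmins, SV2A, SYN1 and CPLX2. Rab, exocyst and V-ATPase genes are not shown. Most rows are pale. STX10 and NSF after histamine, with mean log2 changes of -0.77 and 0.74, are among the deeper colours.

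After IL6, RAB26 was the only called gene of the 104. It fell 2-fold. None was called higher in limma, where 20 were higher at an unadjusted p under 0.05. Among all named genes, 2.76% were called, 1.73% higher and 1.04% lower. At the adjusted p alone, 10 secretory genes were higher and 14 lower (23.1% in all), against 8.32% and 12.9% of all genes (21.3% in all), so the count was close to the background. With each array centred on its median the split was 17 higher and 10 lower. The median log2 change was 0.00 for the 104 genes and -0.01 for all genes. Without IL6 repeat 1 the number called was 5, and without untreated repeat 2 it was 3.

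After IFNα, RAB8B rose 1.69-fold, RAB18 fell 1.82-fold and RAB40B fell 1.5-fold. Of all genes 3.95% were called, 2.86% higher and 1.09% lower. At the adjusted p alone, 6 secretory genes were higher and 19 lower, against 9.14% and 12.9% of all genes. The 25 genes were 24.0% of the families, and the background in both directions was 22.1%. The median log2 change was -0.07, against -0.02 for all genes, and 71 of the 104 changes were below 0.

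After histamine more of these genes passed than after either cytokine. RAB15, NSF and RAB6A rose and RAB26, STX10, RAB37, SYT13 and SYT11 fell, which makes 8 called genes (7.69%) against 6.98% of all genes (3.77% higher, 3.21% lower). At the adjusted p alone, 24 were higher and 25 lower (47.1%), against 40.9% of all genes, with 20.4% higher and 20.5% lower. Median centring gave 5 called higher and 4 lower. The median log2 change was 0.02, against 0.01 for all genes. Histamine was applied for 6 h and the cytokines for 24 h, so these comparisons differ in time as well as agent, and all 3 share the untreated arrays.

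Between the cytokines, RAB15, RAB18 and ATP6V1H were higher after IL6 than after IFNα, and RAB8B and RAB26 lower. These 5 genes (4.81%) compare with 6.96% of all genes called, 3.09% higher and 3.87% lower. At the adjusted p alone, 31 of the 104 (29.8%) were higher after IL6 and 14 lower, against 16.4% and 18.7% of all genes. In both directions together this was 43.3% of the secretory genes and 35.1% of all genes. Among the genes above the median level, the shares were 55.1% and 47.2%. The median log2 difference was 0.07 for these genes and 0.01 for all.

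**Figure D2:**
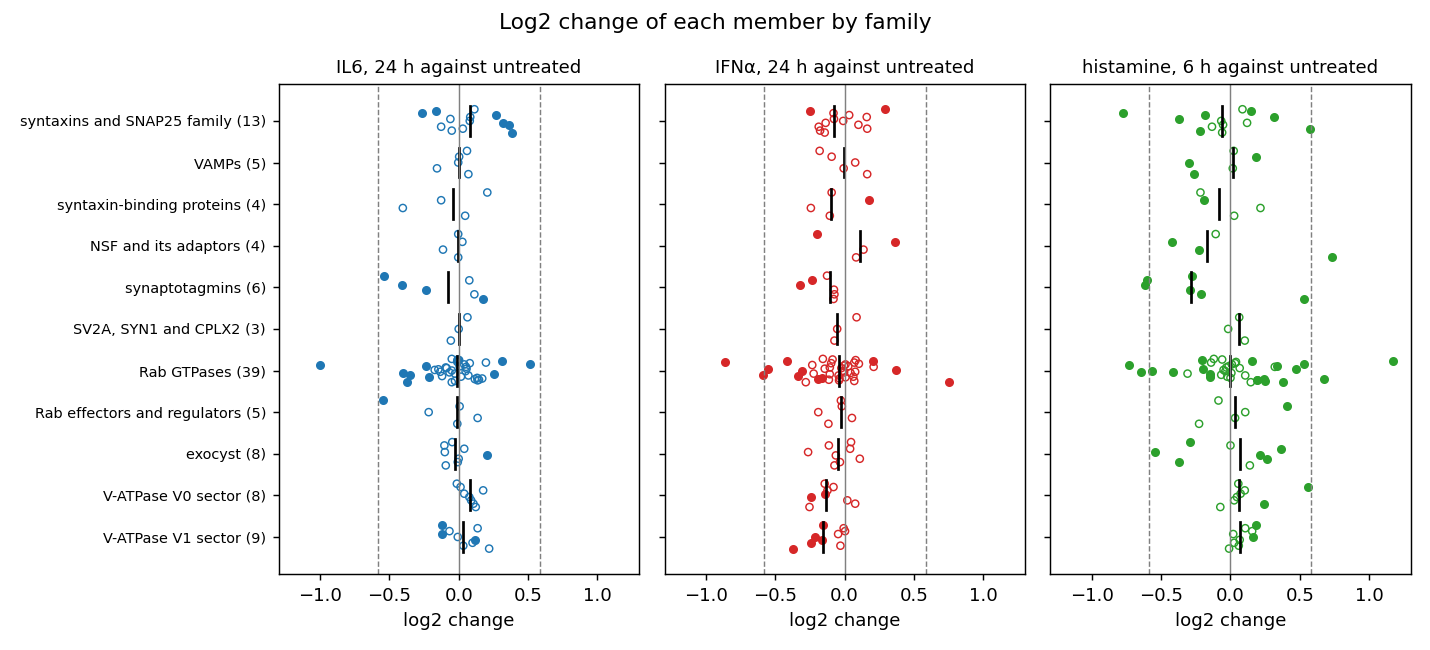
Log2 change of every secretory gene in each comparison, by family. Filled points passed the adjusted p, open points did not, black lines are family medians and dashed lines mark 1.5-fold; the V-ATPase points lie mostly below 0 after IFNα, with a median of -0.13 in V0 and -0.15 in V1.

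Among the target-membrane SNAREs, 4 of 13 were higher after IL6 at the adjusted p alone, all of them syntaxins, and 2 were lower, SNAP25 and STX10, where 8.32% of all genes were higher and 12.9% lower. None reached 1.5-fold. STX8, a syntaxin of late endosomes, measured 9.15, 9.26 and 9.23 in untreated cells and 9.60, 9.61 and 9.58 after IL6. STX4, a plasma membrane syntaxin, measured 8.03, 8.12 and 7.99 against 8.37, 8.39 and 8.46. In both genes every IL6 array lay above every untreated array, with log2 changes of 0.38 and 0.36 and adjusted p of 0.000302 and 0.00108. STX2, another plasma membrane syntaxin, differed by 0.32, and STX12, of recycling endosomes, by 0.27. The second STX12 probe set did not pass (adjusted p = 0.161). Between the cytokines STX8 differed by 0.53 and STX2 by 0.46.

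SNAP25, the plasma membrane SNARE that botulinum toxin A cuts, moved by under 1.5-fold in all 3 treatments. Its levels were 11.05, 11.08 and 11.05 in untreated cells, 10.85, 10.93 and 10.91 after IL6, 10.79, 10.81 and 10.84 after IFNα, and 11.28, 11.23 and 11.11 after histamine. Every cytokine array lay below, and every histamine array above, the untreated ones. The log2 changes were -0.16, -0.25 and 0.15, with adjusted p of 0.0179, 0.000884 and 0.0173. The second probe set gave -0.19, -0.24 and 0.19, and the IL6 value there did not pass (adjusted p = 0.0544). SNAP23, the broadly expressed relative of SNAP25, was higher after IFNα by 0.29.

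Histamine lowered STX10, a syntaxin of the trans-Golgi network. It measured 8.10, 8.33 and 8.24 in untreated cells and 7.35, 7.55 and 7.45 after histamine, with no overlap. The log2 change was -0.77 (SE 0.074, adjusted p = 1.99e-06), a fall of 1.71-fold, and its second probe set gave -0.80. STX6, which acts in traffic between endosomes and the Golgi, measured 7.34, 7.36 and 7.32, then 7.92, 7.84 and 7.98. Its change of 0.57 lay just under 1.5-fold. The second probe set gave -0.01 at a mean level of 5.80, against 7.53 for the brightest. The rise thus rests on the brightest probe set alone. STX17, which acts in autophagosome fusion, was higher by 0.31, and STX18, of the endoplasmic reticulum, was lower, with a change of -0.37.

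Of the 5 vesicle SNAREs (VAMPs), none passed the adjusted p in limma after IL6 or IFNα, and 0 and 2 did at an unadjusted p under 0.05. Among all genes 21.3% passed the adjusted p after IL6, 22.1% after IFNα and 40.9% after histamine. With 5 genes, such counts cannot be told from these shares. After histamine, VAMP3, an endosomal and broadly used VAMP, was higher at 10.77, 10.78 and 10.82 against 10.60, 10.64 and 10.57, a change of 0.19 (adjusted p = 0.00123). VAMP5 and VAMP8, the latter an endosomal VAMP used in granule release of several secretory cells, were lower, with changes of -0.30 and -0.26. For VAMP8 the second probe set gave -0.09 (adjusted p = 0.348), and the brightest did not pass without histamine repeat 1 or 3 or untreated repeat 1 or 2 (changes from -0.35 to -0.21 over all arrays left out). VAMP2, the main granule VAMP of chromaffin cells, had changes of 0.06, -0.18 and 0.02 after IL6, IFNα and histamine, none of which passed. Its mean level was only 5.87, against a lower quartile of 5.02 to 5.11, so a small change could be missed. Between the cytokines it differed by 0.24 (adjusted p = 0.0429), which did not pass with every array left out in turn.

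The proteins that act on the SNARE complex divided after histamine. NSF, the ATPase that separates spent complexes, rose 1.67-fold: it measured 9.79, 9.71 and 9.75 in untreated cells and 10.50, 10.48 and 10.48 after histamine. The log2 change was 0.74 (SE 0.045, adjusted p = 2.73e-08). The IL6 arrays, at 9.80, 9.70 and 9.74, overlapped the untreated ones. Of its adaptors, 2 were lower at the adjusted p alone, where 20.5% of all genes were lower. NAPB (beta-SNAP), the neuronal form, went from 9.40, 9.35 and 9.30 to 8.94, 8.95 and 8.90, and NAPG from 9.25, 9.34 and 9.30 to 9.05, 9.03 and 9.12. Their changes were -0.42 and -0.23 (adjusted p = 0.00254 and 0.00162). After IFNα NAPB was higher by 0.37 (adjusted p = 0.0121), a difference that did not pass without IFNα repeat 3, where it was 0.28. STXBP3, partner of STX4, changed by 0.17 after IFNα and -0.19 after histamine. No syntaxin-binding protein passed after IL6 in limma, where 3 of 4 had an unadjusted p under 0.05 and 21.3% of all genes passed the adjusted p.

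Synaptotagmins were mostly lower after histamine. All 6 passed the adjusted p, 5 lower and 1 higher, with a median log2 change of -0.285, where 20.5% of all genes were lower and 20.4% higher. Centring on the median or quantile normalization left 3 lower and 1 higher, and SYT1 and SYT3 also failed to pass with any of the histamine repeats left out (changes from -0.33 to -0.21 and from -0.26 to -0.18 over all arrays left out). SYT13, a synaptotagmin that lacks calcium-binding residues, measured 10.15, 10.12 and 10.14 in untreated cells, 9.65, 9.73 and 9.80 after IL6, 9.78, 9.80 and 9.86 after IFNα, and 9.49, 9.51 and 9.56 after histamine. Every treated array lay below every untreated array. The log2 changes were -0.41, -0.32 and -0.62 (SE 0.047, adjusted p = 3.07e-05, 0.000175 and 2.45e-07), and only the last reached 1.5-fold. SYT11, also without calcium-dependent binding, measured 11.30, 11.30 and 11.21, then 10.63, 10.62 and 10.75 after histamine, a fall of 1.52-fold (change -0.60, SE 0.045, adjusted p = 2.12e-07). It sat at the fold minimum: without histamine repeat 2 the change was -0.58 and with median centring also -0.58.

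SYT4, a synaptotagmin of dense-core vesicles, went the other way. It measured 11.32, 11.18 and 11.23 in untreated cells and 11.77, 11.74 and 11.82 after histamine, above all untreated arrays. The change was 0.53 (adjusted p = 1.15e-06), and 0.72 in its second probe set. SYT1, a fast calcium sensor of release, measured 8.30, 8.06 and 8.14 untreated and 7.86, 7.56 and 7.47 after IL6. The groups did not overlap, but the 2 lowest IL6 values were those of the arrays with raised hypoxia genes. The change was -0.54 (adjusted p = 0.00221) with all arrays and -0.31 without those arrays and IFNα repeat 3, which leaves a single IL6 array and so no test of its own, and the second probe set gave -0.12. SYT17 was lower after IL6 and histamine, with changes of -0.24 and -0.29 and the same direction in its second probe set (-0.49 and -0.34).

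**Figure D3:**
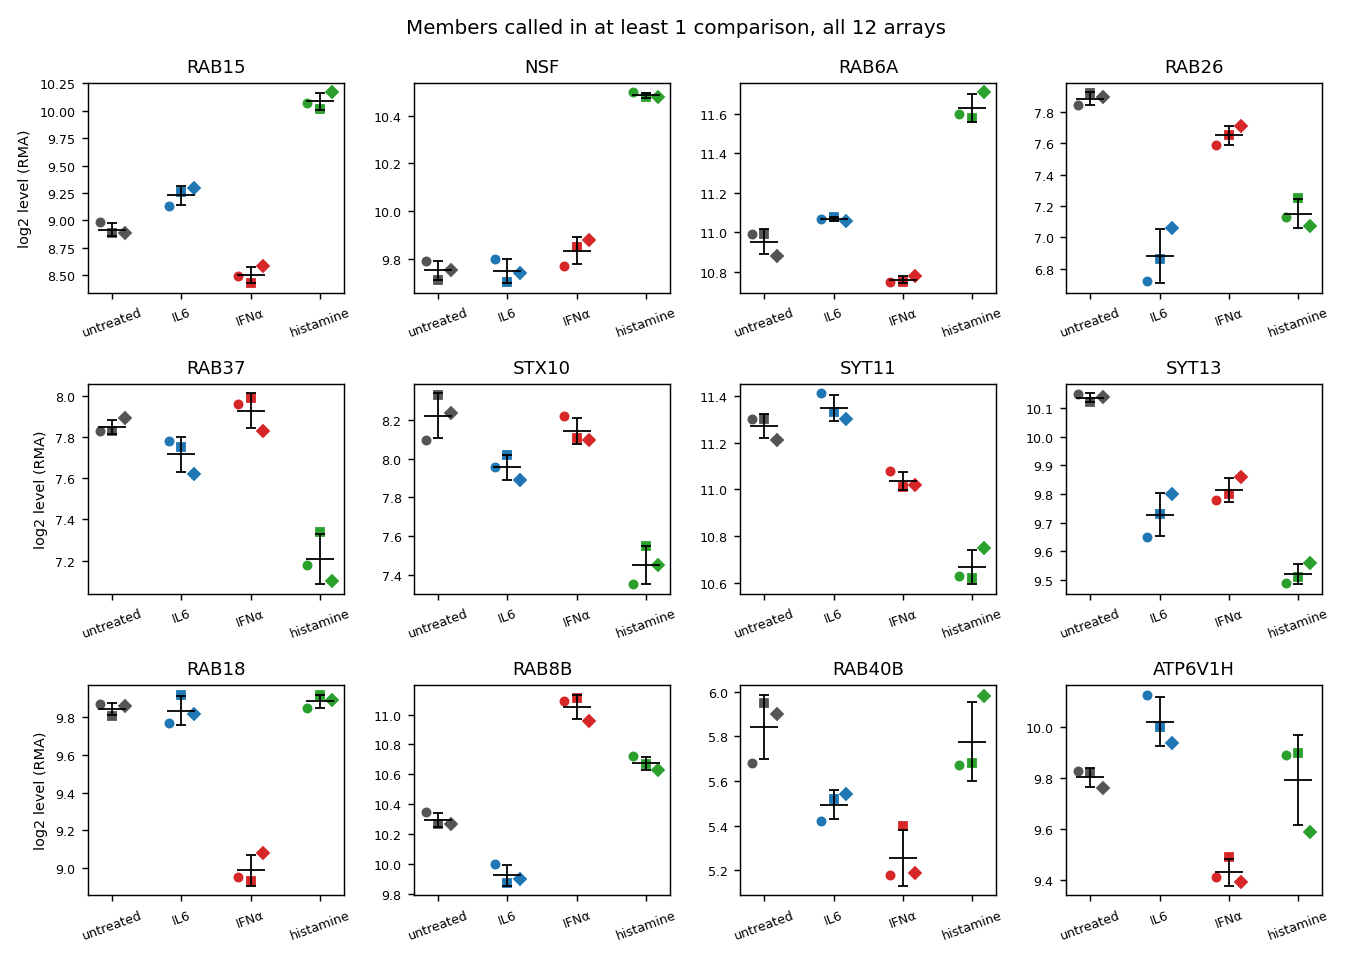
Log2 level of each called secretory gene on every array, by group. Circles, squares and diamonds are repeats 1, 2 and 3 and black bars the mean ± SD of 3 arrays; RAB15 after histamine, at 10.02 to 10.17, lies above all other groups, and RAB8B after IFNα, at 10.96 to 11.11, likewise.

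Of the 12 genes called in any comparison, 7 were Rab GTPases, which make up 39 of the 104. Whether Rabs were called more often than other members was not tested. The share of all named genes called in any comparison was not counted. RAB26, a Rab of secretory granules, measured 7.84, 7.92 and 7.89 untreated, 6.72, 6.86 and 7.06 after IL6, 7.59, 7.65 and 7.71 after IFNα, and 7.13, 7.25 and 7.07 after histamine. Every treated array lay below the untreated ones. The log2 change was -1.0 after IL6 (SE 0.083, adjusted p = 1.23e-06) and -0.73 after histamine (adjusted p = 9.4e-06). After IFNα it was -0.23, which did not pass the adjusted p (0.0718), and the difference between the cytokines was -0.77 (adjusted p = 5.18e-06).

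RAB8B, which acts in traffic to the plasma membrane, moved apart with the 2 cytokines. Its values were 10.35, 10.27 and 10.27 untreated, 10.00, 9.87 and 9.90 after IL6, 11.09, 11.11 and 10.96 after IFNα, and 10.72, 10.67 and 10.63 after histamine. IL6 arrays were lowest and IFNα arrays highest, with no overlap between groups. The log2 changes were -0.37 (adjusted p = 0.000135), 0.76 (SE 0.050, adjusted p = 4.1e-08) and 0.38 (adjusted p = 4.52e-05). The IL6 against IFNα difference was -1.13, or 2.19-fold (adjusted p = 2.63e-10). A second RAB8B probe set gave -0.54, 0.61 and 0.44, and -1.15 between the cytokines.

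RAB18, a Rab of the endoplasmic reticulum, lipid droplets and secretory granules, differed after IFNα. It measured 9.87, 9.81 and 9.86 untreated and 8.95, 8.93 and 9.08 after IFNα. IL6 arrays (9.77, 9.92 and 9.82) and histamine arrays (9.85, 9.92 and 9.89) overlapped the untreated ones. The log2 change after IFNα was -0.86 (SE 0.053, adjusted p = 1.8e-08), and IL6 lay 0.85 above IFNα. RAB40B, a Rab that belongs to a ubiquitin ligase, measured 5.68, 5.95 and 5.90, then 5.18, 5.40 and 5.19, a change of -0.59 (SE 0.10, adjusted p = 0.000775). It stayed past the adjusted p with each array left out but lay under 1.5-fold without untreated repeat 2 (-0.53) or 3 (-0.56) and without IFNα repeat 1 (-0.55) or 3 (-0.55). RAB31, which carries cargo between Golgi and endosomes, lay just under 1.5-fold after IFNα at -0.55, and at 0.47 after histamine. Its values were 7.93, 7.99 and 7.84 untreated, 7.33, 7.34 and 7.44 after IFNα, and 8.31, 8.41 and 8.45 after histamine, so the treated arrays lay on opposite sides of the untreated ones.

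Other Golgi and endosomal Rabs moved by less than 1.5-fold. RAB34, which acts at the Golgi and in cilium formation, measured 10.66, 10.76 and 10.73 untreated, 10.39, 10.43 and 10.41 after IFNα, and 10.08, 10.23 and 10.14 after histamine. Both treatments left it below every untreated array, with changes of -0.31 and -0.57 (adjusted p = 0.00374 and 1.03e-05). RAB33B, a Golgi Rab that takes part in autophagy, measured 8.66, 8.48 and 8.49 untreated and 8.96, 8.99 and 8.79 after IFNα, a change of 0.37 (adjusted p = 0.00499), and IL6 lay below IFNα by a difference of -0.54 (adjusted p = 0.000128). RAB14, of Golgi and endosomes, was higher after IFNα and histamine, with changes of 0.21 and 0.16. RAB4A, which drives rapid recycling, was lower after IFNα at 7.48, 7.41 and 7.41 against 7.78, 7.81 and 7.72 (change -0.34, adjusted p = 0.0015). RAB5A, the early endosome Rab, was lower after IL6, with 10.80, 10.73 and 10.72 against 10.99, 10.95 and 10.96 (change -0.22, adjusted p = 0.00319). RAB11A, of recycling endosomes, and RAB2A, which acts in granule maturation, passed in none of the 4 comparisons, with changes from untreated between -0.16 and 0.07.

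RAB15, a regulator of endocytic recycling, had the largest rise against untreated cells of the 104 genes. Its levels were 8.98, 8.88 and 8.88 untreated, 9.13, 9.26 and 9.29 after IL6, 8.49, 8.43 and 8.58 after IFNα, and 10.07, 10.02 and 10.17 after histamine. The 4 groups did not overlap, and IFNα arrays were lowest. Histamine raised it by 1.17 (SE 0.062, adjusted p = 7.2e-09), or 2.26-fold. The IL6 change was 0.31 (adjusted p = 0.00284) and the IFNα change -0.41 (adjusted p = 0.000211). On IL6 repeat 1 alone, the IL6 array without raised hypoxia genes, the change was 0.22.

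RAB6A, a Golgi Rab that also accompanies secretory vesicles, measured 10.99, 10.99 and 10.88 untreated and 11.60, 11.58 and 11.71 after histamine, a change of 0.68 (SE 0.042, adjusted p = 2.9e-08), and 0.86 in its second probe set. RAB37, which acts in granule secretion, fell from 7.83, 7.83 and 7.89 to 7.18, 7.34 and 7.10 (change -0.64, SE 0.074, adjusted p = 1.17e-05). The groups did not overlap for either gene.

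The Rabs best known on dense-core granules changed by less than 1.5-fold. RAB27A, which docks granules, measured 10.59, 10.52 and 10.54 untreated, 10.24, 10.36 and 10.34 after IL6, and 10.89, 10.87 and 10.90 after histamine. IL6 arrays lay below and histamine arrays above the untreated range. The changes were -0.24 (adjusted p = 0.00189) and 0.34 (adjusted p = 3.63e-05), and the second probe set gave -0.31 and 0.42. RAB3A, which controls granule priming, measured 7.07, 7.20 and 6.94 untreated and 6.75, 6.52 and 6.69 after histamine, a change of -0.42 (adjusted p = 0.00245), with -0.44 in its second probe set. RAB3D, another Rab of this subfamily, changed by 0.26 after IL6 and -0.15 after histamine. RAB3B, a close relative, changed by -0.40 after IL6 (adjusted p = 0.00661).

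**Figure D4:**
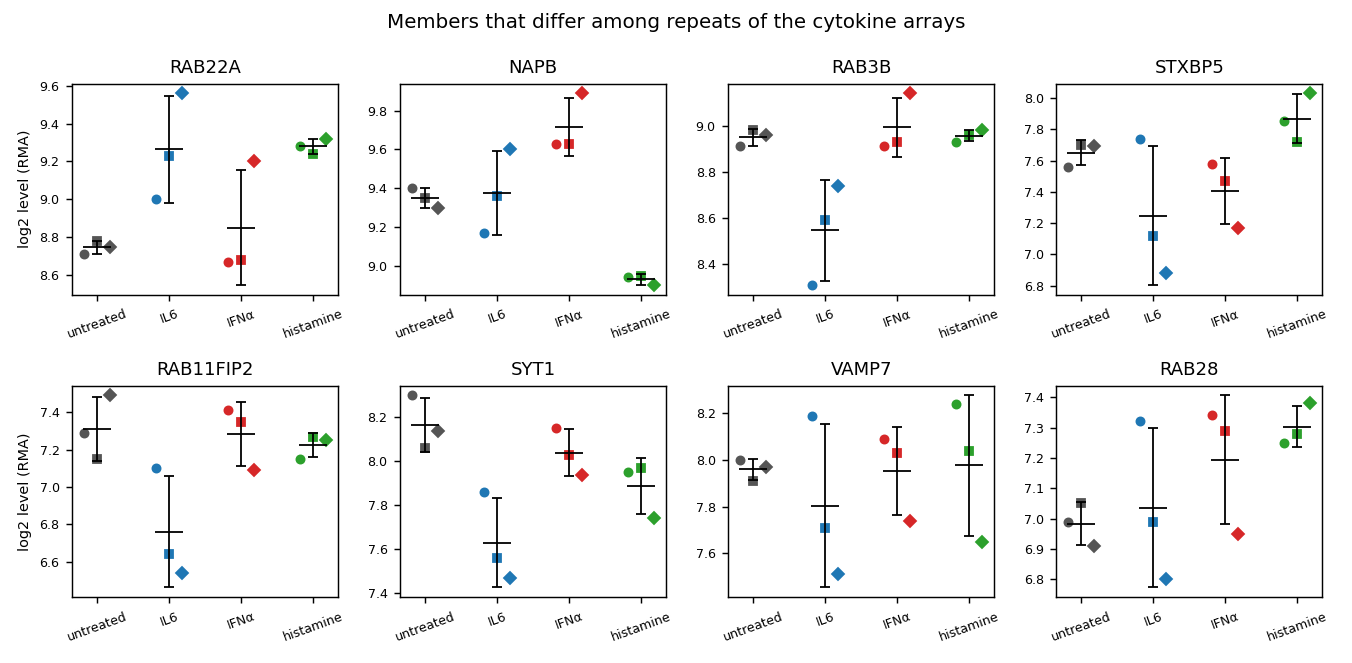
Log2 level, on every array and by group, of secretory genes that differed between repeats of the same treatment. Circles, squares and diamonds are repeats 1, 2 and 3 and black bars the mean ± SD; in STXBP5, IL6 repeat 1 lies at 7.74 and repeats 2 and 3 at 7.12 and 6.88.

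Some genes differed between repeats along with the hypoxia genes. Omitting the 3 arrays where hypoxia genes were raised moved the IL6 change by 0.2 or more in 11 of 104 secretory genes (10.6%), against 8.65% of all genes. This leaves 1 IL6 array, so the values without them are given with no test. RAB22A, an early endosome Rab, measured 8.71, 8.78 and 8.75 untreated but 9.0, 9.23 and 9.56 after IL6 and 8.67, 8.68 and 9.20 after IFNα. Its highest values in each cytokine group were on those arrays, and the IL6 change of 0.52 was 0.25 without them. STXBP5 (tomosyn), an inhibitor of SNARE assembly, measured 7.74, 7.12 and 6.88 after IL6 and 7.56, 7.70 and 7.69 untreated. Its change was -0.40 with all arrays, which did not pass, and 0.09 without those 3.

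RAB11FIP2, an effector of recycling, measured 7.29, 7.15 and 7.49 untreated and 7.10, 6.64 and 6.54 after IL6. The change was -0.55 (adjusted p = 0.00991) with all arrays and -0.21 without those 3, and the second probe set gave -0.10 (adjusted p = 0.404). RAB3B measured 8.91, 8.98 and 8.96 untreated and 8.31, 8.59 and 8.74 after IL6. Its lowest value was on the IL6 array without raised hypoxia genes, and on that array alone its change was -0.64. The part of the hypoxia genes in these values was not tested. Histamine repeat 3 stood apart for 2 genes: RAB3C, of the RAB3 subfamily, measured 8.69, 8.77 and 7.78 after histamine, and ATP6V0E2, a small V0 subunit, 8.81, 8.89 and 8.21. Neither passed after histamine, with adjusted p of 0.279 and 0.729.

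Of 5 Rab effectors and regulators 1 passed after histamine and 1 after IL6, where 40.9% and 21.3% of all genes passed. The one after IL6 was RAB11FIP2, with the limits given above. RAB11FIP5, an effector of recycling vesicles, measured 8.06, 8.19 and 8.03 untreated and 8.51, 8.46 and 8.54 after histamine (change 0.41, adjusted p = 8.21e-05). Of 8 exocyst genes 6 passed after histamine, 3 higher and 3 lower, where 40.9% of all genes passed. EXOC7, which binds the plasma membrane, changed by -0.37, EXOC1 by -0.29 and EXOC3L1, a relative of EXOC3, by -0.54, while EXOC3 changed by 0.36, EXOC6 by 0.26 and EXOC5 by 0.21. The other EXOC1 probe sets did not pass (adjusted p = 0.371, 0.331 and 0.325). EXOC6 did not pass with every array left out in turn, nor did its second probe set pass (adjusted p = 0.259). EXOC3 and EXOC3L1 were dim, with mean levels of 5.75 and 5.99. EXOC5 was also higher after IL6, by 0.21, but did not pass with every array left out in turn. No exocyst gene passed after IFNα in limma, where 1 had an unadjusted p under 0.05 and 22.1% of all genes passed the adjusted p.

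After IFNα 7 of 17 V-ATPase subunits were lower at the adjusted p, each by little, 2 in V0 and 5 in V1, where 12.9% of all genes were lower. No subunit was higher in limma, nor at an unadjusted p under 0.05 (0 of 17), and 14 of 17 changes were below 0. The median log2 change was -0.14, against -0.02 for all genes, and -0.14 with median centring and -0.15 with quantile normalization. ATP6V1H, the regulatory subunit of V1, measured 9.83, 9.82 and 9.76 untreated and 9.41, 9.49 and 9.39 after IFNα. ATP6V1F, of the rotor stalk, measured 11.16, 11.27 and 11.21, then 10.96, 10.98 and 10.97. ATP6V0D1, which links V0 to the stalk, measured 11.46, 11.50 and 11.52, then 11.27, 11.29 and 11.20. In all of these every IFNα array lay below every untreated array, and the changes were -0.37, -0.24 and -0.24 (adjusted p = 0.00264, 0.000462 and 0.000532). ATP6V1D (-0.21), ATP6V1E1 (-0.16), ATP6V1A (-0.15) and ATP6V0B (-0.14) were the others that passed. ATP6V0B did not pass with every array left out in turn. The other ATP6V1A probe sets did not pass (adjusted p = 0.144, 0.587 and 0.871). Among all genes above the median level, 31.2% passed after IFNα in either direction. The summed levels of cortex, fibroblast, endothelial and Schwann cell markers were also lower after IFNα, without overlap with the untreated arrays, as given above, and their part in this was not tested.

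After IL6 1 subunit was higher (ATP6V1E1, 0.12) and 2 lower (ATP6V1A and ATP6V1C1, each -0.12), where 8.32% of all genes were higher and 12.9% lower. ATP6V1A did not pass without IL6 repeat 2 or 3 or any untreated repeat (-0.15 to -0.10 over all arrays left out), nor ATP6V1C1 without IL6 repeat 3 or untreated repeat 1 or 2 (-0.13 to -0.11), and the second ATP6V1C1 probe set gave 0.02 (adjusted p = 0.819). Median centring gave 4 higher and none lower in limma, with 2 lower at an unadjusted p under 0.05. After histamine 4 of 17 were higher, with a median of 0.07, where 20.4% of all genes were higher, so the count was near the background. Quantile normalization gave 3 higher, with a median of 0.03 and 11 changes above and 6 below 0. ATP6V0A2, the Golgi and endosomal form of the V0 a subunit, went from 8.13, 8.16 and 8.01 to 8.62, 8.56 and 8.81 (change 0.56, adjusted p = 9.94e-05). ATP6V0E1 changed by 0.24, ATP6V1A by 0.18 and ATP6V1D by 0.16. Between the cytokines 8 of 17 were higher after IL6, none lower in limma and 1 lower at an unadjusted p under 0.05. Among all genes 16.4% were higher and 18.7% lower at the adjusted p there. ATP6V1H differed there by 0.59 (SE 0.075, adjusted p = 2.6e-05), or 1.51-fold. It was under 1.5-fold without IL6 repeat 1 (0.54), IFNα repeat 1 (0.58) or IFNα repeat 3 (0.57).

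**Figure D5:**
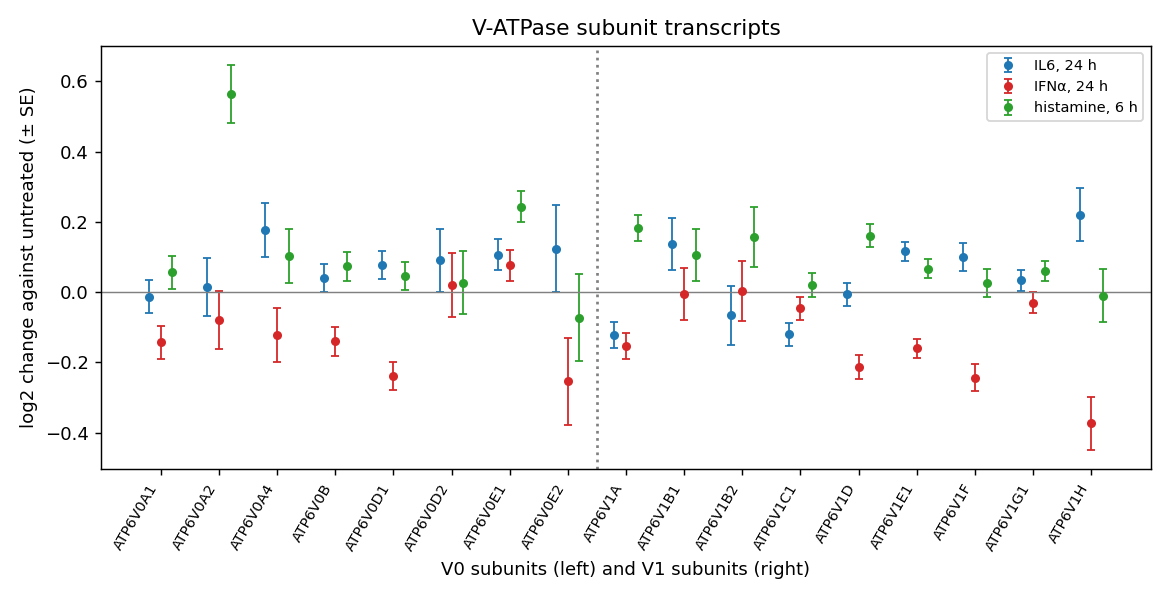
Log2 change ± SE of the 17 V-ATPase subunits after each treatment. In all, 7 subunits passed the adjusted p after IFNα, all of them below 0, and 4 after histamine, all above 0. Among all genes 12.9% were lower after IFNα and 20.4% higher after histamine.

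Genes that work beside these families were read from lists of known partners. Of 17 measured exocytosis proteins outside the families, 8 were higher and 4 lower at the adjusted p after histamine, and ERC2, an active zone scaffold (-0.67), SNAPIN, a SNAP25 partner (-0.64), and SYNGR3, a vesicle membrane protein (-0.60), were called lower. Of all genes 40.9% passed and 3.21% were called lower there. Of 12 V-ATPase partners, VMA21, which assembles V0, was called higher after histamine (0.98) and ROGDI lower (-0.83), with 2 higher and 5 lower at the adjusted p. Among all genes 20.4% were higher and 20.5% lower there. Of 23 Rab regulators, RILPL2, an effector of RAB8 and related Rabs, was called higher after histamine (1.02) and TBC1D4, a Rab GTPase-activating protein, lower after IL6 (-0.63). Among all genes 3.77% were called higher after histamine and 1.04% lower after IL6. Of 23 genes of endocytic membrane recycling, 6 were lower after IFNα at the adjusted p and 13 at an unadjusted p under 0.05, while none was called in limma. At the adjusted p 12.9% of all genes were lower after IFNα. The median of the recycling genes there was -0.13, with 20 of 23 changes below 0, against -0.02 for all genes.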

How the data were processed

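Total RNA from the cultures was biotin-labelled for single-colour arrays, per the labels' protocols. The authors deposited log2 values for 24128 probe sets on 12 arrays. Per the submitters' processing notes the values come from RMA, which normalises arrays against each other and shrinks differences of dim transcripts. Its version is not stated. After 112 control probe sets were left out, 24016 were tested with limma 3.58.1 in R 4.3.3 (group means over all 12 arrays, eBayes with a trend, Benjamini-Hochberg adjustment over all tested). The procedure was tested on simulated data. Of the probe sets 13292 had 1 symbol, 86 several and 10638 none, and a gene with several was represented by the brightest by mean level. Of the 104 genes 7 lay below the lower quartile on all arrays, so their changes are compressed. The number of arrays limits the precision.

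The members and gene lists were chosen with earlier results of these data known. Named are called members, up to 3 of each family at the adjusted p in each comparison, a list of core exocytosis genes (45 of 64 measured; the others were not analysed here) and called partners. RAB14, RAB22A, RAB31, RAB34, RAB4A, ATP6V0E2 and any other member outside this rule were chosen after their values were seen. Alternatives were other variance models, array weights, a filter on dim probe sets, renormalization, other fold minimums, all probe sets of a gene, a fit of 2 groups only, a block for the repeat number, and leaving out arrays. Figures used matplotlib 3.10.9 in Python 3.11.15.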

Additional observations from a re-analysis of the deposited data

How the results depend on the processing

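No called change reversed its direction under any alternative run; STXBP5 after IL6, which did not pass, went from -0.40 to 0.09 without the 3 arrays with raised hypoxia genes. Splits of genes at the adjusted p did turn: after IL6, median centring moved them from 10 higher and 14 lower to 17 and 10. Counts of called genes moved most with the fold minimum. At 1.2-fold 14 were called after IL6, 12 after IFNα, 29 after histamine and 26 between the cytokines, and at 2-fold limma called 0 after IFNα (44 at an unadjusted p under 0.05 with no fold minimum), 1 after histamine and 1 between the cytokines. After IL6, array weights gave 3 called genes and 40 at the adjusted p alone, against 1 and 24, and omitting the 3 arrays where hypoxia genes were raised gave 2 called, a count that rests on 1 IL6 array assumed to vary like the other groups. With each array left out in turn the called genes numbered 1 to 5 after IL6, 2 to 3 after IFNα, 8 to 10 after histamine and 4 to 7 between the cytokines. At the adjusted p alone 15 of 24, 19 of 25, 36 of 49 and 35 of 45 genes passed each time; SYT1 and SYT3 after histamine and SNAP25 after IL6 and histamine were among those that did not. RAB40B after IFNα was also under 1.5-fold with array weights (-0.55), median centring (-0.58), quantile normalization (-0.57) and without the 3 arrays (-0.55), and ATP6V1H between the cytokines with array weights (0.55).

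Of 29 genes with several probe sets, none had another passing the adjusted p in limma the opposite way to a passing brightest probe set, but no other probe set passed with it for 8 of 12 after IL6, 4 of 6 after IFNα, 7 of 20 after histamine and 6 of 11 between the cytokines. Deviations from the group means correlated over 0.1 in 7 of 18 pairs of repeats with the same number (median 0.06, highest 0.60; 5 of 6 for number 1, 1 of 6 each for 2 and 3) and in 3 of 36 other pairs (median -0.04). A sample correlated best with its own number in 26 of 36 cases, a hint from the data only. As not every pair exceeded 0.1, the numbers were not taken as pairing. With the repeat number as a block, 1, 3, 8 and 5 genes were called and 28, 29, 52 and 46 passed the adjusted p after IL6, IFNα and histamine and between the cytokines, and 77 passed the F test.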
